A study of Rattus norvegicus with 8 samples.

Results

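Hal, Uroc1, Amdhd1 and Ftcd encode the enzymes that break histidine down in the liver, Hdc encodes the enzyme that turns histidine into histamine, and Hnmt encodes the methyltransferase that inactivates histamine. The genes were chosen by these 6 symbols, with their FPKM values and fold changes between the diets already known. Of the 6, 5 had a row among the 15115 genes of the authors' deposited table; Hnmt was not analysed here. The samples were livers of male wild-type F344 rats, 4 in the CDAA_PTS group and 4 in the CDAA group. CDAA_PTS rats were fed the choline-deficient amino acid-defined diet CDAA, which gives rise to fatty liver and hepatocellular carcinoma, with pterostilbene, a plant stilbenoid that is a dimethyl ether of resveratrol; each kg of diet held 1.34 g of it. In the text on the study's design, rats given resveratrol and rats given pterostilbene both go by CDAA+PTS; the treatment label of every CDAA_PTS sample states pterostilbene at this dose and was followed. CDAA rats were fed the same choline-deficient diet without the compound. The study ran for 60 weeks, the rats' age is labelled as 1 year, and both groups began with 3 weeks of choline-sufficient diet, which held pterostilbene for the CDAA_PTS rats. Tissue taken in the study could be tumour, nodule or normal liver; no source used here says which it was for each library.

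Histidine has a single main route of breakdown, and it is most active in liver. Histidine ammonia-lyase (Hal) removes ammonia to give urocanate, urocanate hydratase (Uroc1) makes imidazolonepropionate, imidazolonepropionase (Amdhd1) opens the ring to give formiminoglutamate, and formimidoyltransferase cyclodeaminase (Ftcd) hands the formimino group to tetrahydrofolate and releases glutamate. The route therefore feeds a carbon into the folate pool. Histidine decarboxylase (Hdc), a pyridoxal phosphate enzyme best known from mast cells, basophils and stomach, competes for the same substrate.

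With pterostilbene, the first and the last enzyme of the breakdown route were higher and Hdc was lower. By the edgeR columns of the authors' deposited table, Hal and Ftcd rose, Hdc fell, and Uroc1 and Amdhd1 did not pass an adjusted p of 0.05. That makes 3 of 5 genes called, where 3.41% of all 15115 genes were called, 1.47% as higher and 1.95% as lower in CDAA_PTS; since the genes were picked from this contrast, the count is a description. DESeq2 and Cuffdiff call the same 3 genes, against 4.46% and 5.51% of the genes each tested. The table has 1 FPKM value per diet (fragments scaled to transcript length and library size) and none per rat, so neither the spread between rats nor the overlap of the groups could be shown, and the errors below are the standard errors of the authors' DESeq2 columns. In whole liver, fewer cells of a type and less RNA per cell cannot be told apart.

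**Figure D1:**
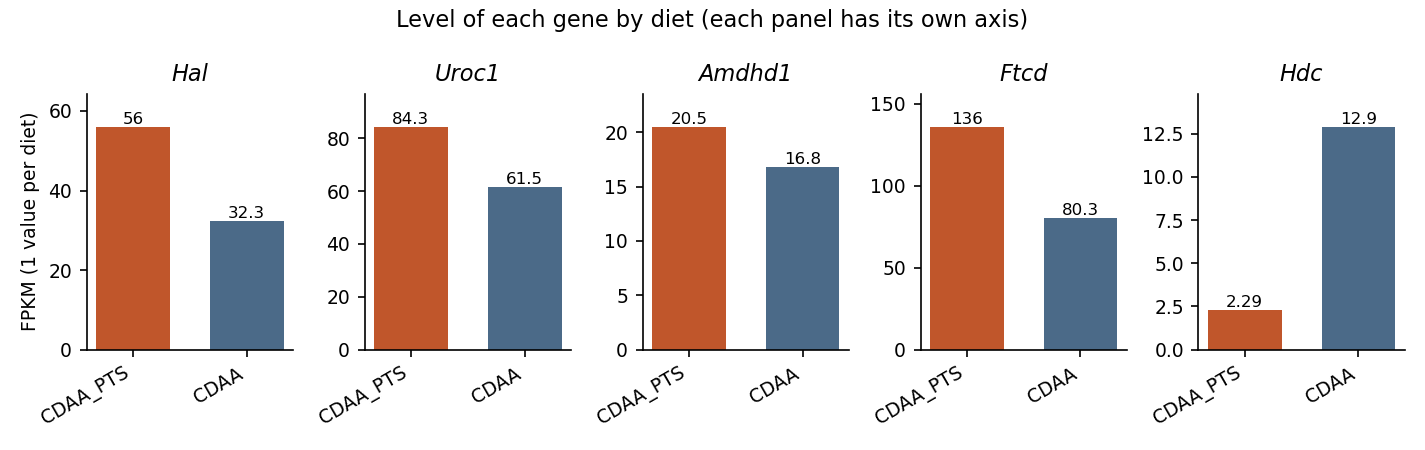
FPKM of each gene in CDAA_PTS (left bar) and CDAA (right bar), as the authors' deposited table gives them, 1 pooled value per diet with no error; each panel starts at 0 and has its own scale. The 4 breakdown enzymes are higher in CDAA_PTS, and Hdc is lower, with 2.29 FPKM in CDAA_PTS against 12.9 FPKM in CDAA.

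The promoters of Ftcd and Hdc, called in opposite directions, are shown for comparison. RefSeq windows on build GRCr8 were found for 4 of the 6 symbols, Uroc1, Ftcd, Hdc and Hnmt; Hal and Amdhd1 had none in the sequence table used. Each line gives the 250 bases before the annotated gene start, 5′ to 3′ on the strand of the gene. Capitals mark the letters of any of 6 motifs searched on both strands: the TATA box spelled TATAAA, the GC box spelled GGGCGG, the CCAAT box, the E-box of clock factors spelled CACGTG, the core of the xenobiotic response element spelled GCGTG, and an HNF1 motif spelled GTTAAT.
Ftcd, chr20:12068220-12068469, minus strand: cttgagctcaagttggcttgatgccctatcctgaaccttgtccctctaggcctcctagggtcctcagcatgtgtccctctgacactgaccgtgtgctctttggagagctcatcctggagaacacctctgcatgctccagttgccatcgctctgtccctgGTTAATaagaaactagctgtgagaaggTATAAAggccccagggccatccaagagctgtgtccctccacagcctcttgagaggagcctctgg
Hdc, chr3:134318705-134318954, minus strand: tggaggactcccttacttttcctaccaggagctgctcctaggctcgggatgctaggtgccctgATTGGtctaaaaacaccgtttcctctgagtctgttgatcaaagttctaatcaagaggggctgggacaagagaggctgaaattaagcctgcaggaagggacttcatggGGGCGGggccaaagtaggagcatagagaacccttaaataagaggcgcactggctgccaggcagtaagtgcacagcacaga
The Ftcd window holds GTTAAT from 91 to 86 bases before the start and TATAAA from 64 to 59 bases before it. Of 27457 genes with such a window, 6.46% have GTTAAT and 13.1% have TATAAA. The Hdc window holds neither; it has GGGCGG from 80 to 75 bases before the start and CCAAT on the opposite strand from 187 to 183 bases before it, motifs found in 32.4% and 34.3% of windows. The Uroc1 window has a CCAAT as well, 56 to 52 bases before the start. GCGTG and CACGTG are in none of the windows of Uroc1, Ftcd, Hdc and Hnmt, against 27.2% and 5.79% of all windows. The motifs overlap at no base in the Ftcd and Hdc windows, and a match describes these letters only.

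Hal (ENSRNOG00000004502) covers 34326086 to 34356413 of chromosome 7 (rn6, the build of all gene positions below). These positions are the locus spans of the authors' deposited table, and 1 span can be given for more than 1 gene. Its level in the authors' deposited table was 56.0 FPKM in CDAA_PTS and 32.3 FPKM in CDAA, a ratio of 1.74. On the log2 scale the authors' deposited table puts this difference at 0.82 by edgeR (adjusted p = 0.0042) and at 0.66 ± 0.16 (SE) by DESeq2, whose estimates are moderated toward 0. Hal makes the committed step, and its change ranked 80 among the 222 genes called higher when ordered by edgeR p.

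Uroc1 (ENSRNOG00000043404; chromosome 4, 122244710 to 122276361), the second enzyme, had 84.3 FPKM in CDAA_PTS against 61.5 FPKM in CDAA. The difference did not pass in the authors' deposited table, with a log2 value of 0.44 by edgeR and an adjusted p of 0.32. By DESeq2 it was 0.35 ± 0.17 (SE), and the 95% normal interval of 0.01 to 0.69 reaches the size of the DESeq2 value of Hal. Before adjustment, DESeq2 gives Uroc1 a p of 0.044 in the authors' deposited table.

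Amdhd1 (ENSRNOG00000005266; chromosome 7, 34361632 to 34477932), the third enzyme, had 20.5 FPKM in CDAA_PTS against 16.8 FPKM in CDAA. The authors' deposited table gives a log2 value of 0.30 by edgeR (adjusted p = 0.55) and of 0.24 by DESeq2 with a 95% normal interval of -0.10 to 0.57. The span given for Amdhd1 begins 5219 bases beyond the end of Hal and is also that given for Ccdc38, a coiled-coil protein gene that was called higher, by 0.59 on the log2 scale (edgeR columns of the authors' deposited table, adjusted p = 0.047). A shared span does not give the limits of either gene, so the distance from Hal to Amdhd1 itself is not known from it. Ccdc38 had 4.39 FPKM in CDAA_PTS and 3.08 FPKM in CDAA. No source used here says whether the libraries keep strand, so reads of Amdhd1 and Ccdc38 may be mixed where they overlap.

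Ftcd (ENSRNOG00000001261; chromosome 20, 12806956 to 12820466) was the most abundant of the 5 transcripts per length, with 136 FPKM in CDAA_PTS against 80.3 FPKM in CDAA. In log2 units of the authors' deposited table it rose by 0.74 (edgeR, adjusted p = 0.010) or 0.61 ± 0.16 (DESeq2, SE). Among called members Ftcd lay closest to the threshold; the genes next to it in the order of edgeR p, Adamts6 before it and Acly after it, have adjusted values of 0.010 and 0.011 there. Hal and Ftcd had FPKM ratios of 1.74 and 1.69, and the enzymes between them 1.37 and 1.22. Whether these 4 changes differ from each other was not tested, because the table holds no value per rat.

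**Figure D2:**
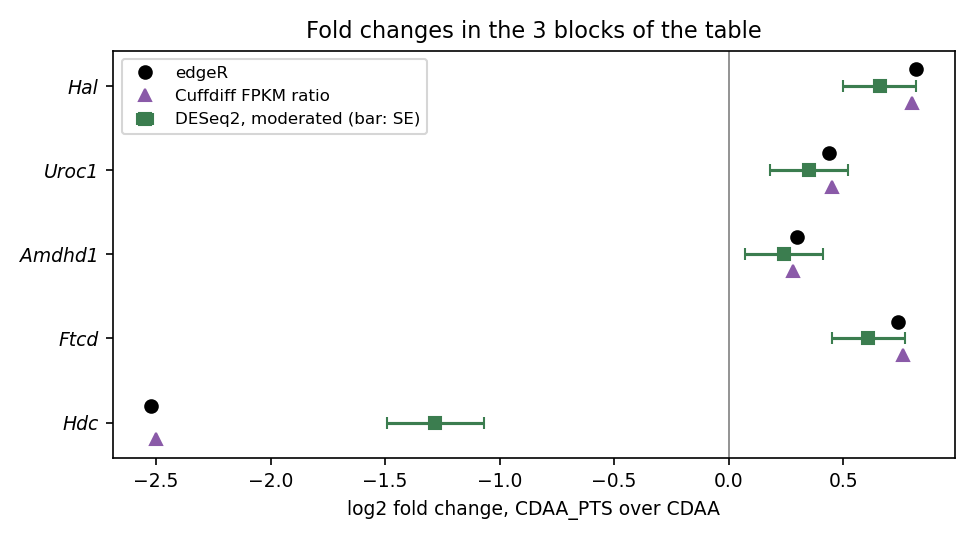
Log2 fold changes of CDAA_PTS over CDAA for the 5 genes in the 3 blocks of the authors' deposited table: edgeR (circles), DESeq2 moderated toward 0 (squares, bars are its standard error) and the Cuffdiff FPKM ratio (triangles). The 4 breakdown enzymes lie between 0.24 and 0.82, and Hdc lies between -2.52 and -1.28.

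Hdc (ENSRNOG00000010262; chromosome 3, 119057516 to 119075619) fell to 2.29 FPKM in CDAA_PTS, against 12.9 FPKM in CDAA, 5.64-fold lower. The authors' deposited table gives log2 values of -2.52 by edgeR (adjusted p = 3.6e-06) and -1.28 ± 0.21 (SE) by DESeq2 (adjusted p = 6.2e-07). Both pass the threshold, but the moderated estimate is far smaller in size. Only 36 of the 15115 genes had a lower edgeR log2 fold change, and 0 of these 36 had a mean CPM as high as that of Hdc, 18.9 CPM over all libraries. In the order of edgeR p, Hdc ranked 20 among the 294 genes called lower. This places a transcript of middling abundance, above 58.7% of the genes in mean CPM, at the edge of the range of change.

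**Figure D3:**
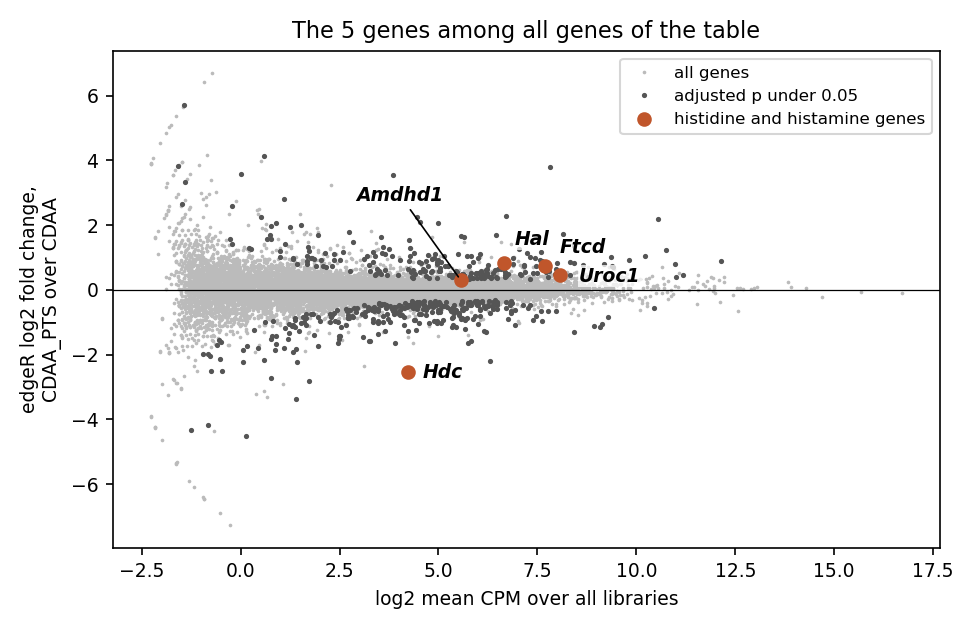
Position of the 5 genes among all 15115: the horizontal axis is the log2 mean CPM over all libraries, the vertical axis the edgeR log2 fold change of CDAA_PTS over CDAA, both from the authors' deposited table, with called genes in dark grey. Hdc, at -2.52, lies below every gene of equal or higher mean CPM, while the 4 breakdown enzymes lie between 0.30 and 0.82.

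The order of levels per length was the same in both diets, from Ftcd through Uroc1, Hal and Amdhd1 to Hdc, but the distance at its lower end was not. Amdhd1 stood 8.94-fold above Hdc in CDAA_PTS and 1.30-fold above it in CDAA. Summed over the 4 breakdown enzymes, the level was 297 FPKM in CDAA_PTS and 191 FPKM in CDAA. This sum was 129 times the Hdc level in CDAA_PTS and 14.8 times in CDAA, so the ratio was 8.77-fold higher in CDAA_PTS. The ratio restates the changes given above, most of it the 5.64-fold lower Hdc level, in genes picked from this contrast. It compares transcript levels only. With 1 value per diet, no error could be given for these ratios, nor could it be judged which neighbours in the order differ beyond their spread.

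Within 30000 bases of the locus spans given for the 5 genes lay 10 other genes, of which 1, Ccdc38, was called by edgeR, where 3.41% of all genes were called. Cuffdiff does not call Ccdc38 (q = 0.69, authors' deposited table). It does call Col6a2, a collagen gene beside Ftcd with 26.3 FPKM in CDAA_PTS and 18.2 FPKM in CDAA (q = 0.0075, authors' deposited table). Hdc lies between Slc27a2, a fatty acid transporter and acyl-CoA synthetase that had 313 FPKM in CDAA_PTS against 391 FPKM in CDAA, and Gabpb1. By the edgeR columns of the authors' deposited table, Slc27a2 stood at -0.29 on the log2 scale (adjusted p = 0.49) and Gabpb1 at -0.35 (adjusted p = 0.32). Lta4h, which makes leukotriene B4 and lies beside Hal, stood at -0.20 there (adjusted p = 0.67).

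No listed gene that moves, senses or degrades histamine was called. Of 12 such genes listed, 8 were in the table, with a median log2 fold change of 0.16 against 0.01 over all genes, and 0 of the 8 were under 0.05 by edgeR even before adjustment. Neither DESeq2 nor Cuffdiff called any, but DESeq2 has no adjusted p for 4 of the 8 and Cuffdiff did not test 4. With 3.41% of all genes called, a list this short may hold no called gene, and nothing particular to it follows. Aldh2 and Maob had 368 and 68.1 FPKM in CDAA_PTS, against 329 and 66.7 FPKM in CDAA. Maob oxidizes methylhistamine, and Aldh2 oxidizes aldehydes made from histamine and methylhistamine. Maoa had 42.5 FPKM in CDAA_PTS and 46.0 FPKM in CDAA. Aoc1, the diamine oxidase that degrades histamine directly, was low, with 1.98 FPKM in CDAA_PTS and 1.78 FPKM in CDAA (authors' deposited table, edgeR, adjusted p = 0.95). The receptors Hrh1 and Hrh2 were very low. Hrh1 had 0.157 FPKM in CDAA_PTS and 0.195 FPKM in CDAA, and Hrh2 had 0.141 FPKM in CDAA_PTS and 0.0690 FPKM in CDAA. Neither passed by edgeR (authors' deposited table, adjusted p = 0.88 for Hrh1 and 0.84 for Hrh2). At levels this low a difference may be missed.

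Among genes for other uses of histidine and its transport, 0 were called, against 3.41% of all genes. Of 14 listed genes 12 were measured, their edgeR log2 fold changes ran from -0.40 to 0.19 with a median of -0.04, and 0 of the 12 were under 0.05 before adjustment. DESeq2 and Cuffdiff called none of them. Slc38a3, a glutamine and histidine carrier of liver, had 255 FPKM in CDAA_PTS and 250 FPKM in CDAA, and its relative Slc38a4 had 256 FPKM in CDAA_PTS and 230 FPKM in CDAA. Slc38a2, a further neutral amino acid carrier, had 36.2 FPKM in CDAA_PTS and 41.6 FPKM in CDAA. Hars, the cytosolic enzyme that charges histidine to its tRNA, had 14.8 FPKM in CDAA_PTS and 13.8 FPKM in CDAA. Cndp2, a dipeptidase, had 28.1 FPKM in CDAA_PTS and 27.5 FPKM in CDAA.

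Downstream of Ftcd, where the histidine carbon enters the folate pool, 2 of 21 listed genes were called, against 3.41% of all genes. Aldh1l1, which oxidizes 10-formyltetrahydrofolate to tetrahydrofolate and carbon dioxide and so frees the folate that Ftcd uses, had 167 FPKM in CDAA_PTS and 64.0 FPKM in CDAA. In the authors' deposited table this rise is 1.36 on the log2 scale by edgeR (adjusted p = 1.9e-15) and 1.22 ± 0.13 (SE) by DESeq2. Mthfd1, the cytosolic enzyme that interconverts methylene-, methenyl- and formyltetrahydrofolate, had 22.3 FPKM in CDAA_PTS and 17.1 FPKM in CDAA, and rose by 0.37 (edgeR columns of the authors' deposited table, adjusted p = 0.039). Cuffdiff does not call Mthfd1 (q = 0.078, authors' deposited table). The other 19 did not pass and the list's median log2 fold change was 0.06, against 0.01 over all genes. Glutamate, the other product of Ftcd, is handled by Glud1, which had 469 FPKM in CDAA_PTS and 448 FPKM in CDAA, and by Got2, which had 141 FPKM in CDAA_PTS and 139 FPKM in CDAA. Got1 had 79.0 FPKM in CDAA_PTS and 28.8 FPKM in CDAA, and Gls2 had 54.9 FPKM in CDAA_PTS and 29.9 FPKM in CDAA. Cuffdiff calls both higher (q = 0.0019 for each, authors' deposited table), and edgeR calls neither (adjusted p = 0.062 for Got1 and 0.085 for Gls2). The DESeq2 columns there do not call Gls2 (adjusted p = 0.064). They hold no p for Got1, raw or adjusted, as for 98 genes in all, although its mean normalized count was 1578. Glul, which makes glutamine, had 78.8 FPKM in CDAA_PTS and 72.9 FPKM in CDAA, and Shmt2, a source of methylenetetrahydrofolate, had 96.4 FPKM in CDAA_PTS and 98.9 FPKM in CDAA.

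**Figure D4:**
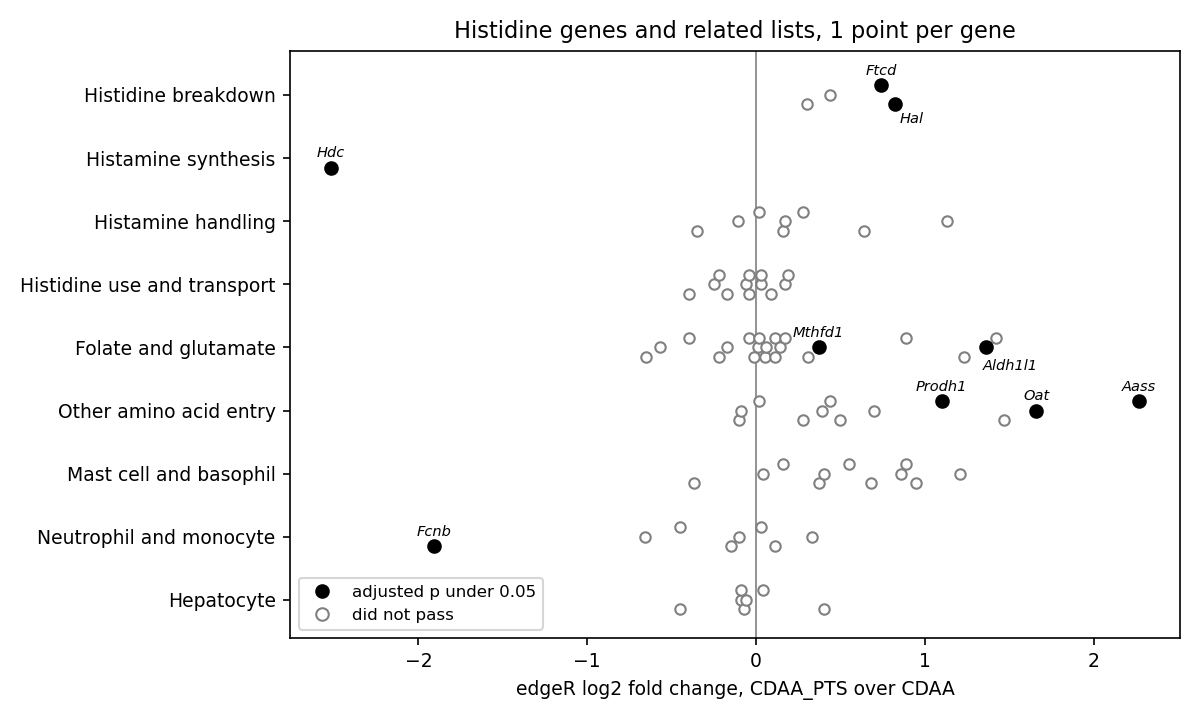
EdgeR log2 fold changes of CDAA_PTS over CDAA from the authors' deposited table, 1 point per gene, for the histidine breakdown and histamine genes and the lists set beside them; filled points have an adjusted p under 0.05 and carry their names. Hdc, at -2.52, is the lowest point, and the 11 mast cell and basophil markers lie between -0.37 and 1.21 with none called.

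Entry enzymes of other amino acid breakdown routes gave a yardstick for Hal. Of 14 listed symbols 12 were measured, and 10 had log2 fold changes above 0. By edgeR 3 rose, 0 fell and 9 did not pass, where 1.47% of all genes were called higher and 1.95% lower. The median log2 fold change was 0.47, against 0.59 for the 4 histidine breakdown genes and 0.01 for all genes. Aass, which opens lysine breakdown, rose by 2.27, Oat, which converts ornithine, by 1.66, and Prodh1, a proline dehydrogenase, by 1.10, all on the log2 scale. The authors' deposited table gives edgeR adjusted p of 3.1e-07 for Aass, 0.036 for Oat and 0.038 for Prodh1, and Oat does not pass by DESeq2 there (adjusted p = 0.12). Among those that did not pass, the 4 most abundant were Arg1, Cdo1, Tdo2 and Tat, with log2 values between 0.39 and 0.70 by edgeR in the authors' deposited table. Sds, which deaminates serine, had 108 FPKM in CDAA_PTS and 36.2 FPKM in CDAA, a log2 value of 1.47 (edgeR columns of the authors' deposited table, adjusted p = 0.068). Cuffdiff calls 5 of the 12, Sds (q = 0.0019) and Cdo1 (q = 0.0063) beside the 3 that rose by edgeR (authors' deposited table). It calls 5.51% of all the genes it tested. Upward values were therefore shared by most of these enzymes, and Hal was not tested against them.

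Markers of cells that can hold Hdc were read beside it. Of 15 mast cell and basophil markers 11 were measured, 10 of them with log2 fold changes above 0, and 1 was under 0.05 by edgeR before adjustment. None was called by edgeR or DESeq2, where edgeR called 3.41% of all genes. DESeq2 has no adjusted p for 3 of the 11, and Cuffdiff did not test 2. The summed level of the 11 markers was 17.3 FPKM in CDAA_PTS and 12.5 FPKM in CDAA. Hpgds, which makes prostaglandin D2, had 3.41 FPKM in CDAA_PTS and 3.35 FPKM in CDAA, and Kit, the stem cell factor receptor, had 2.12 FPKM in CDAA_PTS and 1.90 FPKM in CDAA. Mcpt8, a basophil marker, was the 1 with a value below 0, -0.37 on the log2 scale, with 0.535 FPKM in CDAA_PTS and 0.677 FPKM in CDAA (authors' deposited table, edgeR, adjusted p = 0.90). The mast cell protease genes Cpa3 and Tpsb2 had 1.73 and 1.34 FPKM in CDAA_PTS and 1.32 and 0.585 FPKM in CDAA, and Ms4a2, a chain of the IgE receptor, had 0.540 FPKM in CDAA_PTS and 0.331 FPKM in CDAA. Mcpt2 had 4.82 FPKM in CDAA_PTS and 2.53 FPKM in CDAA, a difference that Cuffdiff calls (q = 0.017, authors' deposited table) and edgeR does not. Of 8 measured neutrophil and monocyte markers, Fcnb, a ficolin of the lectin pathway, fell by 1.91 on the log2 scale (authors' deposited table, edgeR, adjusted p = 0.0011), to 0.790 FPKM in CDAA_PTS against 3.02 FPKM in CDAA. The other 7 did not pass, although 5 of the 8 had log2 fold changes below 0. Before adjustment 3 of the 8 were under 0.05 by edgeR: Fcnb and Ly86, which were lower, and Cd14, which was higher. The share of all genes under 0.05 before adjustment was not computed, so this count has none to be read against. Csf3r, the receptor of granulocyte colony-stimulating factor, stood at -0.66 and Ly86 at -0.45 on the log2 scale (authors' deposited table, edgeR, adjusted p = 0.39 for Csf3r and 0.31 for Ly86), and Cd14 at 0.33. The sum of the 8 was 109 FPKM in CDAA_PTS and 108 FPKM in CDAA, most of it Lyz2, with 75.4 FPKM in CDAA_PTS and 74.0 FPKM in CDAA. None of the 3 measured platelet markers and the 2 measured gastric and neuroendocrine markers, Syp and Slc18a2, was called by edgeR; DESeq2 has no adjusted p for 2 of the platelet markers and for both others, and Cuffdiff left 1 platelet marker and both others untested. The cells that carry Hdc in these livers cannot be told from whole-tissue values, and their part in the difference was not tested.

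The hepatocyte markers showed liver tissue in both groups, and none of the 7 was called, where edgeR called 3.41% of all genes. At that share a list this short may hold no called gene, and nothing about cell content follows. Ttr and Serpina1 had 7034 and 5004 FPKM in CDAA_PTS and 7436 and 4862 FPKM in CDAA. Apoa1, an apolipoprotein of HDL, had 3222 FPKM in CDAA_PTS and 4382 FPKM in CDAA, and Cps1, of the urea cycle, had 913 FPKM in CDAA_PTS and 689 FPKM in CDAA; by edgeR in the authors' deposited table their log2 values are -0.45 (adjusted p = 0.25) and 0.40 (adjusted p = 0.39). Tf, the transferrin gene, had 21593 FPKM in CDAA_PTS and 15748 FPKM in CDAA, while its edgeR log2 value there is -0.06, the opposite sign. Hnf4a, a transcription factor of hepatocyte identity, had 115 FPKM in CDAA_PTS and 119 FPKM in CDAA. Alb is listed at 0 FPKM in both diets with a Cuffdiff status of low data, although its edgeR log2 mean CPM is the highest plotted; by edgeR its log2 value in that table is -0.09. The 5 cholangiocyte markers all had log2 fold changes above 0, with a median of 0.23, and none was called by edgeR. Cuffdiff calls 1 of them, Sox9, with 4.41 FPKM in CDAA_PTS and 3.04 FPKM in CDAA (q = 0.043, authors' deposited table). Of all the genes it tested, Cuffdiff calls 5.51%. The authors' mean normalized counts sum to 1.39e+07 over all genes, the median gene had 12.9 CPM, and the depth of each library is unknown.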

How the data were processed

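Liver RNA of 8 rats was made into libraries with an Illumina TruSeq kit, per the labels' protocols. Per the submitters' processing notes, reads were handled with TopHat2 and Cufflinks on build rn6, and FastQC, edgeR and DESeq2 are named too, all with no version. How reads were counted, any filters and the model designs are not given in the sources used. The deposited table has 1 row per gene and blocks from 3 tools, per the file headers. The authors' DESeq2 block gives a signal (mean normalized count over all libraries), a log2 ratio moderated toward 0, its SE, a test score, and raw and adjusted p-values. From edgeR the authors give log2 ratios, log2 mean CPM over the libraries and p-values, and the deposited Cuffdiff block 1 FPKM per group, their log2 ratio and q-values. Log2 values are CDAA_PTS over CDAA; the sign matched the FPKM values for all 5 genes found.

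A gene was called where the authors' edgeR adjusted p was under 0.05 over all 15115 genes. For counts made before adjustment, the share over all genes was not computed. No model was fitted here, since the table has no value per rat, and the number of per-sample columns set aside was 0. Rats were housed 2 per cage, which pairs is not stated, and p-values rest on the authors' own estimates of the spread between rats. Computed here were FPKM ratios, list counts and medians, 95% normal intervals (1.96 standard errors of the authors' DESeq2 columns) and Benjamini-Hochberg values over genes of at least 1 CPM, tested on simulated data, with Python 3.11.15, pandas 2.3.3 and NumPy 2.4.6. In the authors' DESeq2 columns 1956 genes have no adjusted p and were kept as missing. The genes, the lists and the naming rule (all 6 symbols; from each list every called gene and up to 4 of the most abundant others, by FPKM) were chosen with earlier results of these data known; some genes of the lists are not reported here and enter no count or median of their list. Genes named outside that rule, among them chromosome neighbours, receptors, Aoc1, Hars, Sds and marker genes, and the motifs, were picked after the values were seen. Likeness of pattern to other genes was not computed, since the table has 1 value per diet.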

Additional observations from a re-analysis of the deposited data

How the results depend on the processing

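Hal, Ftcd and Hdc were the called genes by edgeR, by DESeq2, by Cuffdiff and with edgeR p-values adjusted over genes of at least 1 CPM; centring on the median gene, which moves log2 values by 0.01, changed no direction. All 25 alternative log2 values of the 5 genes kept their direction. For most of them this was fixed in advance. Adding the same pseudocount to both diets cannot turn the sign of an FPKM ratio, and a shift of 0.01 is too small to turn these values. The values from FPKM carry no call. Hdc moved most, from -2.52 by edgeR to -1.28 as moderated by DESeq2 and to -2.08 from FPKM with a pseudocount of 1. Among the 41 other histidine, histamine and folate genes, 2 were called by edgeR, DESeq2 and under the CPM minimum, against 4 by Cuffdiff, with 1 shared. Over all genes each tested, edgeR called 3.41%, DESeq2 4.46% and Cuffdiff 5.51%. Whether these small counts differ from those shares was not tested. Cuffdiff adds Got1, Gls2 and Mthfd2, whose log2 values by edgeR in the authors' deposited table are 1.42, 0.89 and -0.57 (adjusted p = 0.062 for Got1, 0.085 for Gls2 and 0.31 for Mthfd2), and leaves out Mthfd1; the cause was not tested. DESeq2 has no p for Got1, so it could not call that gene. With Hal alone, the ratio of breakdown to Hdc level was 9.79-fold higher in CDAA_PTS, against 8.77-fold with the 4 enzymes. Both ratios divide by the same Hdc level. No paired analysis was possible because the table has no value per rat; leaving out each rat was not run for the same reason, so it is unknown whether 1 rat carries a value.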

Other observations

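Hrg, the histidine-rich glycoprotein that hepatocytes secrete into plasma, rose with pterostilbene. It had 1508 FPKM in CDAA_PTS and 859 FPKM in CDAA, which the authors' deposited table puts at 0.81 on the log2 scale by edgeR (adjusted p = 0.0040) and at 0.67 ± 0.16 (SE) by DESeq2. It was found after the values were seen, by searching the table's descriptions for histidine or histamine. Beside the 5 genes above, 13 rows matched and Hrg was the 1 called, where edgeR called 3.41% of all genes. The search takes in any gene whose description holds these words, whatever its part in histidine use. Its log2 fold change lies next to that of Hal, 0.82, but the table holds no value per rat with which to ask whether the genes vary together.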
